A study of Mus musculus with 6 samples.

Results

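The pentose phosphate pathway enzymes were followed at the transcript level in mouse peritoneal cells sorted as endothelial cells (ECs). The set holds 8 genes chosen by name, which are G6pdx, H6pd, Pgls and Pgd of the oxidative branch and Rpia, Rpe, Tkt and Taldo1 of the non-oxidative branch. Each of the 8 had exactly 1 row among the 22183 genes of the deposited table, and all 8 passed the filter on low counts. The RNA came from WT male C57BL/6J mice aged 8 to 10 weeks at the start, of which 3 had a daily intraperitoneal injection of PD fluid with 4.25% glucose for 6 weeks (PD mice) and 3 had saline for the same time (saline mice). PD fluid is the hypertonic glucose solution instilled into the abdomen in peritoneal dialysis (PD). The comparison asked whether transcripts of glucose metabolism differ in the peritoneal ECs of mice exposed to it. The supplementary methods describe digestion of the mesentery and a sort of CD31+ CD45- cells, while the sample labels name magnetic sorting for CD31+. G6pdx and H6pd are 2 genes that the study itself picked out on these samples, so their direction here is not independent evidence.

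The pathway starts from glucose-6-phosphate, the first product of glucose uptake and the entry to glycolysis. Its oxidative branch removes a carbon as carbon dioxide and passes electrons to NADP+, giving the NADPH that cells spend on reducing glutathione, on lipid synthesis and on nitric oxide synthesis. Its non-oxidative branch interconverts sugar phosphates reversibly, and so links ribose phosphate for nucleotides with the fructose-6-phosphate and glyceraldehyde-3-phosphate of glycolysis. ECs rely on both products, since NADPH is a cofactor of endothelial nitric oxide synthase and dividing vessel cells need nucleotides.

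Levels are given as CPM, the counts of a gene relative to its library total, scaled by the TMM method of edgeR, and fold changes are those of PD mice over saline mice, on the log2 scale. In PD mice 3 of the 4 oxidative genes rose (G6pdx, H6pd and Pgd) and the other (Pgls) fell, while none of the 4 non-oxidative genes passed. A gene passed where its p from the edgeR quasi-likelihood test, adjusted by the Benjamini-Hochberg method over 14005 genes, was under 0.05. Over all of those, 58.9% passed, 31.1% as higher and 27.8% as lower, so that 4 called of 8 members is near the share of all genes. The median log2 fold change was -0.01 over the 8 members, 0.33 over the oxidative members, -0.08 over the non-oxidative members and 0.02 over all tested genes. In bulk RNA, fewer cells of a type and less RNA per cell cannot be told apart.

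The 6 libraries held from 21973426 to 26374292 counts on genes. They did not hold ECs alone, and the cell mixture differed between the groups. In every library the summed leukocyte markers stood above the summed endothelial markers, so the enzyme levels below are those of a mixture. CD31 (Pecam1), the antigen of the sort, averaged 469 ± 19.4 CPM in saline and 514 ± 7.85 CPM in PD mice (SD, 3 mice per group), and CD45 (Ptprc), which the sort should exclude, 2373 ± 127 and 1473 ± 63.6 CPM. Summed CPM of 12 endothelial markers ran from 1203 to 1215 in saline mice and from 1943 to 2032 in PD mice, with 11 of 12 higher, and that of 6 leukocyte markers from 7387 to 7764 and from 5847 to 5903, with 5 of 6 lower. B cell markers (8 of 8 lower) ran from 6280 to 6548 and from 2967 to 3012 CPM, T cell markers (6 of 8 lower) from 2655 to 2769 and from 1905 to 2146, and macrophage markers (10 of 10 higher) from 1098 to 1122 and from 4388 to 4561. Acinar markers of the pancreas (17 of 17 tested higher, of 18 listed) ran from 4.61 to 8.62 and from 8427 to 9502 CPM, and 5 of them were at 3 counts or fewer in every saline mouse. Fibroblast markers (7 of 7 higher) ran from 89.4 to 95.9 and from 828 to 863 CPM, and mesothelial markers (7 of 7 higher) from 13.6 to 17.3 and from 151 to 175. Neutrophil markers (6 of 7 tested higher, of 8 listed) ran from 35.6 to 41.0 and from 307 to 318 CPM, mast cell markers (5 of 6 higher) from 233 to 240 and from 340 to 387, and smooth muscle and pericyte markers (7 of 7 higher) from 280 to 298 and from 452 to 500. Adipocyte markers (2 of 6 tested higher, of 7 listed) ran from 66.6 to 82.9 and from 97.4 to 113 CPM, with Lep at 0 counts in every PD mouse, and proliferation genes (8 of 10 lower) from 459 to 469 and from 345 to 369. The part of these cell mixtures in the results below was not tested.

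Because the mixture moved, each enzyme was also fitted with the libraries scaled to the summed counts of the endothelial markers or of the leukocyte markers. The median log2 fold change of all tested genes was 0.02 under TMM, -0.69 under endothelial scaling and 0.39 under leukocyte scaling. A scaling moves all genes by nearly the same amount. A change relative to that median is therefore nearly the same under all 3 scalings by construction, for instance 0.26 each time for G6pdx. It says nothing on how stable a change is. A change relative to 0 does depend on the scaling, so the value under each scaling stands beside each enzyme. The markers themselves did not move as 1. Under TMM the log2 fold changes of the 12 endothelial markers ran from 0.13 to 1.65. Those of the 6 leukocyte markers ran from -0.69 to 0.31. The values under these scalings, and their signs, therefore depend on the markers chosen.

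G6pdx encodes glucose-6-phosphate dehydrogenase, which commits glucose-6-phosphate to the pathway and makes its first NADPH. It lies on the X chromosome (ENSMUSG00000031400; GRCm38 chromosome X, 74409483 to 74429194, minus strand, in GENCODE M21). The study measured this transcript by PCR as well, and its primers are shown because they mark the part of the mRNA that assay reads. They fall in exons 4 and 5 of a transcript with 13 exons, at chrX:74414930-74414950 and chrX:74414022-74414044, and span 103 bases of the mRNA.
G6pdx forward primer: cacagtggacgacatccgaaa
G6pdx reverse primer: agctacataggaattacgggcaa
Both primers were found together in 3 transcripts of the annotation, all of G6pdx. The nearest site in G6pd2, a near copy with 93.2% identity to G6pdx over 2332 aligned bases, has 2 mismatches to the forward and 5 to the reverse primer. G6pd2 had 0 counts in every mouse, where 3 counts per library are the limit that a count of 0 allows, so no reads had been assigned to the copy in place of G6pdx.

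G6pdx was at 65.3, 67.8 and 64.9 CPM in the 3 saline mice and at 81.3, 83.4 and 75.9 CPM in the 3 PD mice. Every PD mouse was above every saline mouse, as was the case for 34.0% of all tested genes, with 31.6% apart in the other direction. The mean rose by 21.5% on the fitted scale, which on the log2 scale is 0.28 ± 0.07 (standard error, adjusted p = 0.00512 in edgeR), with a 95% interval from limma-voom of 0.13 to 0.43. G6pdx fell under endothelial scaling, with a log2 fold change of -0.43 (adjusted p = 0.000198, edgeR), and rose under leukocyte scaling by 0.66 (adjusted p = 1.47e-05, edgeR). It shares 418 exon bases on the opposite strand with Ikbkg, a subunit of the IkB kinase complex, which was lower in PD mice (-0.61, adjusted p = 5e-05, edgeR). The strand setting of the counting is not given in the sources used here, so reads in those bases cannot be assigned to either gene with certainty.

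H6pd encodes the dehydrogenase of the endoplasmic reticulum lumen, which carries out the first steps of the oxidative branch there and keeps a separate NADPH pool (ENSMUSG00000028980; chromosome 4, 149979475 to 150009023, minus strand). It was at 4.61, 4.06 and 7.83 CPM in saline mice and at 18.5, 15.8 and 11.2 CPM in PD mice. These came from 88 to 189 counts per saline library and from 247 to 502 per PD library. The groups did not overlap, and saline mouse 3, the highest of its group, came nearest to PD mouse 3, the lowest of its own.

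H6pd rose 2.76-fold, or by 1.46 ± 0.25 on the log2 scale (standard error; edgeR, adjusted p = 0.000513), with a 95% interval from 0.94 to 2.07. H6pd was the only member called higher under all 3 scalings, with 0.75 (adjusted p = 0.0115) under endothelial and 1.83 (adjusted p = 0.000126) under leukocyte scaling in edgeR. Its SD in PD mice was 3.69 CPM beside a mean of 15.2, while that of G6pdx was 3.83 beside a mean of 80.2. H6pd hands its NADPH to Hsd11b1, the lumenal reductase that regenerates active glucocorticoid. Hsd11b1 moved the other way, from 183 ± 8.39 to 120 ± 17.9 CPM (mean ± SD, n = 3 mice each), a log2 fold change of -0.61 (adjusted p = 0.000336, edgeR), and was at -0.23 under leukocyte scaling (adjusted p = 0.0629, edgeR).

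Pgls encodes 6-phosphogluconolactonase, which opens the lactone that the dehydrogenase makes (ENSMUSG00000031807; chromosome 8, 71592176 to 71601092, plus strand). It was at 34.0, 36.0 and 32.5 CPM in saline mice and at 30.9, 28.5 and 27.5 CPM in PD mice. All PD mice were below all saline mice, with a narrow gap between saline mouse 3 and PD mouse 1. The fall of 0.24 ± 0.09 on the log2 scale (standard error; edgeR, adjusted p = 0.0376, 95% interval -0.43 to -0.04) was the weakest of the 4 calls. Pgls was lower under endothelial scaling (-0.95, adjusted p = 7.5e-07, edgeR) and turned to 0.14 under leukocyte scaling (adjusted p = 0.195, edgeR).

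The call for Pgls was lost when any of 4 mice was left out, namely saline mouse 1, saline mouse 2, PD mouse 2 or PD mouse 3, with adjusted p over the 6 left-out mice between 0.0312 and 0.122 (edgeR). It also shares 776 exon bases on the same strand with Niban3, a gene expressed in B cells. Niban3 went from 23.7 ± 1.25 to 16.6 ± 2.06 CPM (mean ± SD, n = 3 mice each), a log2 fold change of -0.51 (adjusted p = 0.00286, edgeR). How reads in the shared bases were divided is not given in the sources used here, and the level of Pgls is uncertain to that extent.

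Pgd encodes 6-phosphogluconate dehydrogenase, which makes the further NADPH of the branch and releases ribulose-5-phosphate (ENSMUSG00000028961; chromosome 4, 149149991 to 149166771, minus strand). It was at 52.8, 47.4 and 48.6 CPM in saline mice and at 66.8, 62.5 and 62.8 CPM in PD mice. The lowest PD mouse stood well above the highest saline mouse, and the spread within each group was small beside that gap. Pgd rose 1.29-fold, or by 0.37 ± 0.08 on the log2 scale (standard error; edgeR, adjusted p = 0.00169, 95% interval 0.21 to 0.53). As for G6pdx, the direction turned under endothelial scaling (-0.34, adjusted p = 0.00183, edgeR), and under leukocyte scaling it was 0.74 (adjusted p = 1.12e-05, edgeR).

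**Figure D1:**
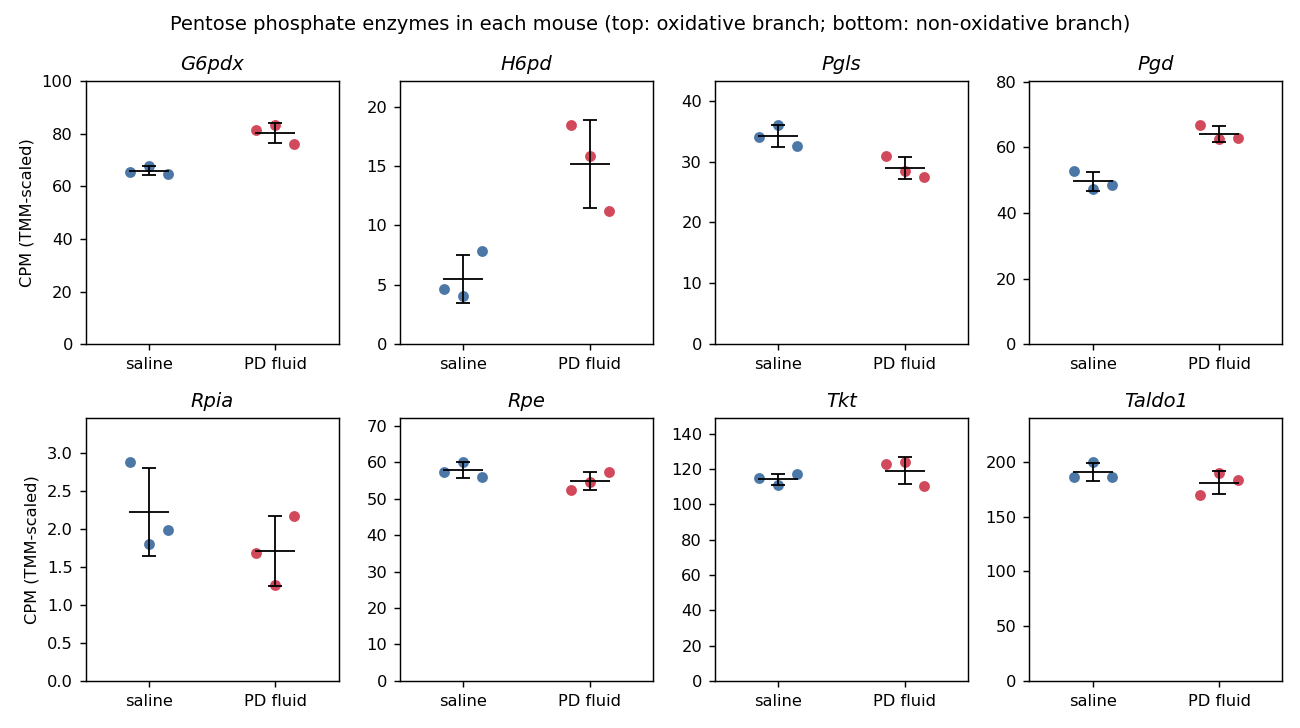
TMM-scaled CPM (y axis, from 0) of each of the 8 enzymes in 3 saline mice (blue) and 3 PD mice (red), with the mean as a horizontal bar and the SD as whiskers, the oxidative branch above and the non-oxidative branch below. The groups are apart in all 4 upper panels, upward for G6pdx, H6pd and Pgd and downward for Pgls, and overlap in all 4 lower panels. Of all tested genes, 34.0% were apart upward and 31.6% downward, so the number of members apart is near that share.

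The non-oxidative branch begins with the fate of ribulose-5-phosphate. Rpia encodes the isomerase that turns it into ribose-5-phosphate, the sugar of nucleotides (ENSMUSG00000053604; chromosome 6, 70765720 to 70792232, minus strand). It was at 2.89, 1.80 and 1.99 CPM in saline mice and at 1.69, 1.26 and 2.17 CPM in PD mice, from 30 to 74 counts per library. PD mouse 3 lay above 2 of the saline mice. The log2 difference of -0.39 ± 0.30 (standard error; edgeR, adjusted p = 0.284) had an interval from -1.07 to 0.26, so at this depth neither a fall by a factor near 2 nor a small rise could be told from no change. A stretch of 371 bases of its mRNA has 97.3% identity with Tmem72, and 5 further unnamed gene models hold like copies, so the few reads of Rpia are uncertain as well.

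Rpe encodes the epimerase that gives xylulose-5-phosphate, the substrate of transketolase (ENSMUSG00000026005; chromosome 1, 66700831 to 66719805, plus strand). Its levels were 57.4, 60.2 and 56.0 CPM in saline mice and 52.5, 54.6 and 57.4 CPM in PD mice. PD mouse 3 lay within the saline range. PD and saline mice differed by -0.08 ± 0.07 in log2 level (standard error, adjusted p = 0.377 in edgeR, interval -0.24 to 0.08). Rpe shares 558 exon bases on the opposite strand with Kansl1l, whose log2 fold change was -0.09 (adjusted p = 0.528, edgeR), so part of its reads cannot be assigned with certainty.

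Tkt encodes transketolase, the thiamine-dependent enzyme that moves 2-carbon units between the sugars (ENSMUSG00000021957; chromosome 14, 30548359 to 30574720, plus strand). Its levels were 115, 111 and 117 CPM in saline mice and 123, 124 and 110 CPM in PD mice. PD mouse 3 was the lowest of all 6 and the other PD mice the highest. On the log2 scale the difference was 0.06 ± 0.07 (standard error, adjusted p = 0.482 in edgeR, interval -0.09 to 0.21).

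Taldo1 encodes transaldolase, which moves 3-carbon units and completes the return to glycolysis (ENSMUSG00000025503; chromosome 7, 141392199 to 141402968, plus strand). Its levels were 186, 200 and 186 CPM in saline mice and 169, 190 and 183 CPM in PD mice. Saline mouse 2 was the highest and PD mouse 1 the lowest, with the others mixed. PD mice stood at -0.08 ± 0.07 against saline mice on the log2 scale (standard error, adjusted p = 0.332 in edgeR, interval -0.22 to 0.07). Gm17823, a gene model without a row among the deposited genes, has 94.7% identity with Taldo1 over 923 aligned bases. The level of Taldo1 is uncertain to that extent.

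For Rpe, Tkt and Taldo1 the intervals leave out a change as large as that fitted for Pgd, while for Rpia the interval is too wide to say so. All 4 non-oxidative genes were lower under endothelial scaling, with log2 fold changes of -1.10, -0.79, -0.65 and -0.78 for Rpia, Rpe, Tkt and Taldo1 (edgeR). Under leukocyte scaling Rpe, Tkt and Taldo1 were higher, by 0.30, 0.43 and 0.30, and Rpia was at -0.01 (adjusted p = 0.972, edgeR). Over the 8 members endothelial scaling gave 1 higher and 7 lower, where all tested genes gave 11.9% and 64.2%. Leukocyte scaling gave 6 higher and 0 lower, where all tested genes gave 55.2% and 5.64%.

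**Figure D2:**
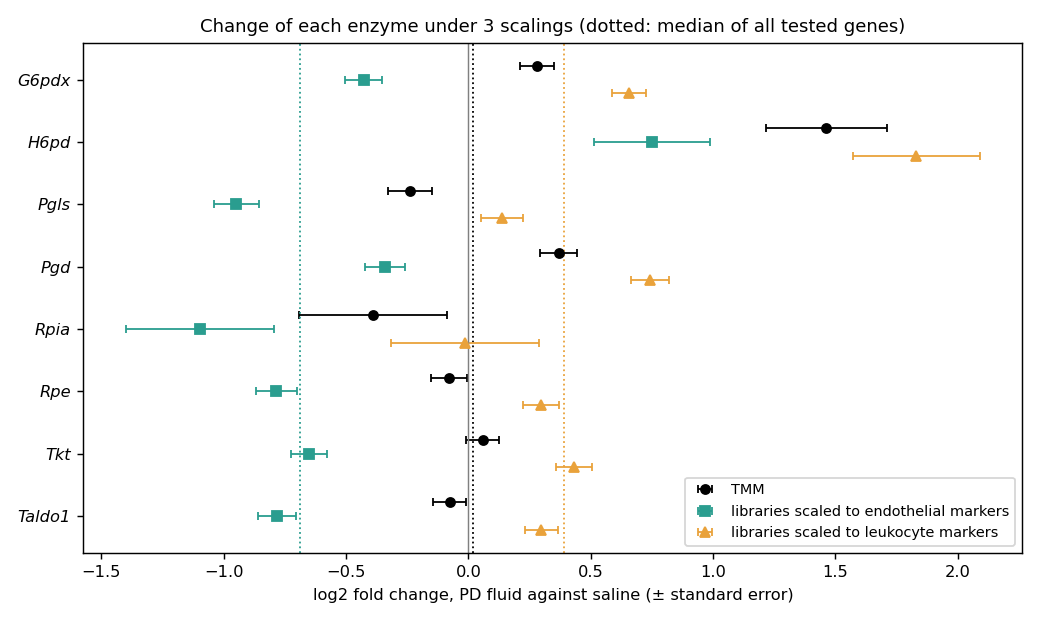
Log2 fold change, PD against saline mice (x axis), of each enzyme (rows) with its standard error, under TMM (black), endothelial marker scaling (green) and leukocyte marker scaling (orange). The dotted lines mark the median of all tested genes under each scaling, at 0.02, -0.69 and 0.39. Each enzyme keeps its distance to those lines, as a scaling moves all genes by nearly the same amount. H6pd lies far to their right and G6pdx and Pgd nearer on the same side.

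Summed over the oxidative members, CPM ran from 154 to 157 in saline mice and from 177 to 197 in PD mice. Summed over the non-oxidative members, it ran from 361 to 373 and from 346 to 370, so that under TMM only the oxidative sums were apart. This holds for TMM alone, since endothelial scaling gave 3 of 4 oxidative and 4 of 4 non-oxidative members as lower. Of all tested genes that scaling gave 64.2% as lower. Pairs of enzymes were also compared within each library, where the ratio of the counts of 2 enzymes does not depend on the scaling. A ratio can still depend on the cell mixture, which differed between the groups, and that part was not tested. Of these pairs Tkt/G6pdx alone sets a non-oxidative against an oxidative enzyme, so the branches as a whole were not compared. Transketolase against glucose-6-phosphate dehydrogenase (Tkt/G6pdx) was at 1.76, 1.64 and 1.80 in saline mice and at 1.51, 1.49 and 1.45 in PD mice. Every PD mouse was below every saline mouse, and the log2 ratio differed by -0.22 (two-sided exact permutation test, p = 0.1, adjusted over 5 ratios 0.25).

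The ratio of the lumenal to the cytosolic dehydrogenase (H6pd/G6pdx) was at 0.0705, 0.0598 and 0.121 in saline mice and at 0.227, 0.190 and 0.147 in PD mice. The groups were again apart, by 1.22 on the log2 scale (exact permutation p = 0.1, adjusted 0.25). With 3 mice against 3 the smallest p this test can give is 0.1, so neither could pass. How often ratios of other genes were apart between the groups was not tested. The dehydrogenases that act in sequence kept closer together. Pgd/G6pdx was at 0.808, 0.699 and 0.750 in saline mice and at 0.823, 0.750 and 0.827 in PD mice, an overlapping difference of 0.09 (exact permutation p = 0.2, adjusted 0.333). The Tkt/Taldo1 ratio ran from 0.554 to 0.629 and from 0.601 to 0.725 (difference 0.14, exact permutation p = 0.3, adjusted 0.375), and Rpia/Rpe from 0.0299 to 0.0503 and from 0.0231 to 0.0379 (difference -0.31, exact permutation p = 0.5, adjusted 0.5), both with overlapping groups.

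**Figure D3:**
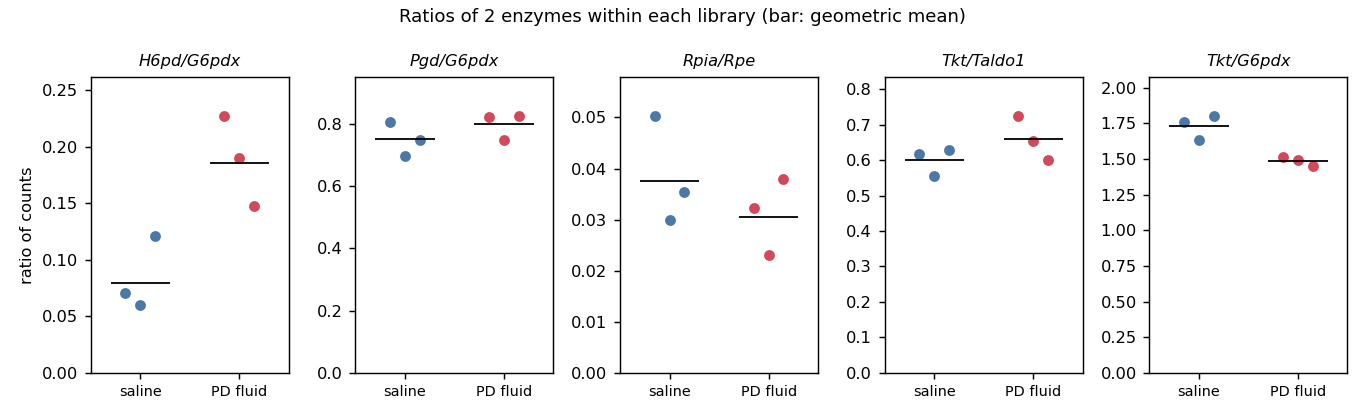
Ratio of the counts of 2 enzymes within each library (y axis, from 0) in saline mice (blue) and PD mice (red), with the geometric mean as a bar. H6pd/G6pdx is higher in all 3 PD mice, Tkt/G6pdx is lower in all 3, and the groups overlap in the other 3 panels.

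The levels of the enzymes were compared with each other per length, as the deposited FPKM, which divide by transcript length and library size. Taldo1 was highest, at 155 ± 5.38 FPKM in saline mice and 148 ± 6.65 in PD mice (SD, n = 3 mice each, as below). Tkt followed at 50.7 ± 1.99 and 52.8 ± 4.86, then Pgls at 37.3 ± 1.49 and 31.9 ± 2.95. G6pdx stood at 25.3 ± 0.549 and 30.6 ± 2.02, Pgd at 22.3 ± 1.35 and 29.0 ± 1.82, and Rpe at 23.1 ± 1.12 and 22.1 ± 1.39. The lowest were H6pd at 1.17 ± 0.459 and 3.28 ± 0.865, and Rpia at 1.21 ± 0.322 and 0.935 ± 0.236.

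The spread between mice left some of this order undecided. Taldo1 and Tkt were apart from each other and from all others in both groups. In saline mice Pgls was above G6pdx, G6pdx was above Pgd, and Pgd and Rpe overlapped. In PD mice Pgls, G6pdx and Pgd overlapped, with values between 27.7 and 35.1 FPKM, and all stood above Rpe, which ran from 21.2 to 23.7. H6pd and Rpia overlapped in saline mice and were apart in PD mice, where the lowest H6pd value was 2.36 and the highest of Rpia 1.16 FPKM. Thus the lumenal dehydrogenase was at a small fraction of the cytosolic level in both groups, with an FPKM ratio to G6pdx of at most 0.128 in any mouse.

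**Figure D4:**
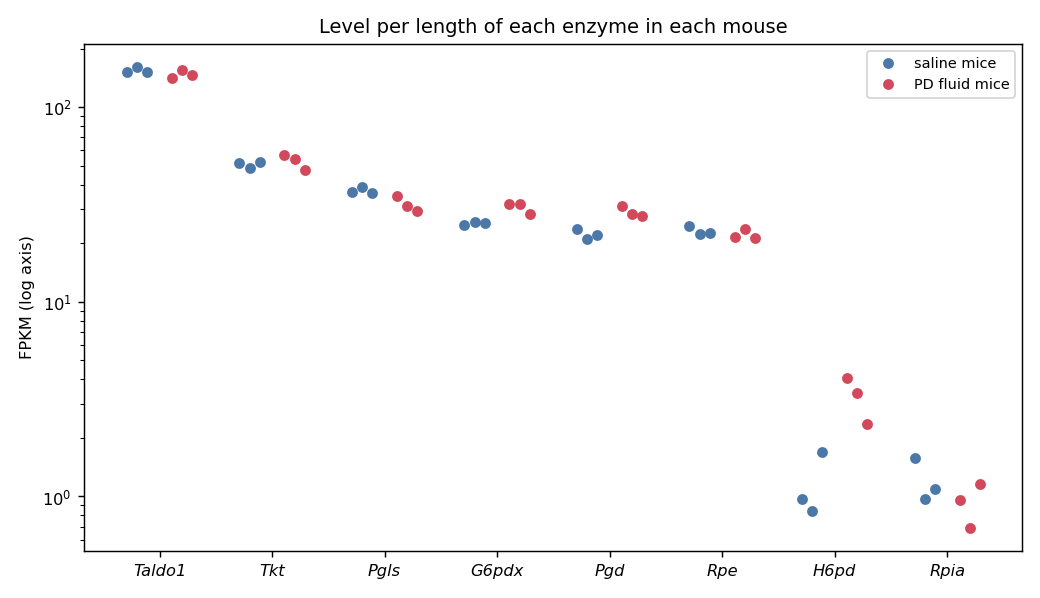
Deposited FPKM (log axis) of each enzyme in each of 3 saline mice (blue) and 3 PD mice (red), with the enzymes ordered by their mean over all 6. Taldo1 lies above 140 FPKM in every mouse, Tkt, Pgls, G6pdx, Pgd and Rpe lie between 21.1 and 56.8, and H6pd and Rpia lie at 4.07 or below.

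Of the paralogs, Tktl1, a transketolase-like gene, was at 0.43, 0.97 and 0.70 CPM in saline mice and at 1.62, 0.55 and 0.68 CPM in PD mice, with a log2 fold change of 0.47 (adjusted p = 0.436, edgeR). G6pd2 and Tktl2 had 0 counts in every mouse. The genes whose pattern over the 6 mice was most like that of G6pdx, by Pearson correlation of log2 CPM among 13811 genes, were Epn2 (0.9964), an endocytic adaptor, Golph3 (0.9954), a Golgi phosphoprotein, and Cilk1 (0.9944), a kinase of cilia. For H6pd they were Fgfrl1 (0.9977), an FGF receptor without a kinase domain, Tusc1 (0.9977) and Sema7a (0.9972), a membrane-anchored semaphorin. With 6 mice in 2 groups such values are common, and 654 genes reached over 0.95 with G6pdx and 629 with H6pd. They are a description only, since the points share libraries and groups.

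The promoters of the cytosolic dehydrogenases that rose are shown because antioxidant response elements, bound by the redox factor NRF2, are known at genes of this pathway. They are the 250 bases before the RefSeq start on GRCm38.p6, read 5′ to 3′ on the minus strand. Capitals mark the antioxidant response element core (TGACNNNGC), the E-box (CACGTG) and the GC box (GGGCGG) on either strand, 3 motifs that do not overlap here. G6pdx lies at chrX:74428881-74429130 and Pgd at chr4:149166706-149166955.
G6pdx promoter: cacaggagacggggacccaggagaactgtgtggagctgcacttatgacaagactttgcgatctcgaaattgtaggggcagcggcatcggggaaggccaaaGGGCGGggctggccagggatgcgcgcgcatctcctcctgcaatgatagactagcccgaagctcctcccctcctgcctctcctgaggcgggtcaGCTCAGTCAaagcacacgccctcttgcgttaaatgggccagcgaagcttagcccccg
Pgd promoter: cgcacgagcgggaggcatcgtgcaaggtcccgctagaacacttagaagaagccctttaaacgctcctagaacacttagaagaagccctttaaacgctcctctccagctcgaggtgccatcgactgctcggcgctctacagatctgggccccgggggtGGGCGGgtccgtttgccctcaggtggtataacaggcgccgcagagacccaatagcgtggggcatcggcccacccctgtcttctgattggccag
All 8 members matched a promoter row. The element core was found in G6pdx alone of the 8, on the reverse strand, and in 10.2% of 32851 RefSeq promoters of the same length. The GC box was found in 7 of 8, all but H6pd, against 32.7% of all promoters, and the E-box in 0 of 8, against 6.0%. The start in RefSeq lies 5787 bases from that of the GENCODE gene model for H6pd, 772 for Tkt and 314 for G6pdx, and at most 66 for the other 5, so other windows would hold other letters. The window of H6pd, the only window without a GC box, thus lies far from the start of its gene model, and its GC content was 38.8%, against 54.4% to 64.4% in the other 7.

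The genes around the pathway were grouped by what they share with it, in 9 lists of 93 genes, of which 81 were tested. Of these, 25 rose, 16 fell and 40 did not pass, with a median log2 fold change of 0.04 against 0.02 for all tested genes, of which 31.1% rose and 27.8% fell. Endothelial scaling gave 6 higher and 57 lower, beside 11.9% and 64.2% of all tested genes, and leukocyte scaling 52 higher and 4 lower, beside 55.2% and 5.64%, so most of these calls did not hold under every scaling. In the deposited annotation, 25 further genes of the KEGG pentose phosphate pathway gave 3 higher and 5 lower of 17 tested under TMM, with a median of -0.16, but 1 higher and 14 lower under endothelial and 8 higher and 1 lower under leukocyte scaling.

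Upstream, 4 of 8 genes tested around glucose-6-phosphate were higher and 0 lower (median 0.20), beside 31.1% and 27.8% of all tested genes. Hexokinases, which phosphorylate incoming glucose, accounted for 3 of these 4. Hk3 rose from 17.5 ± 2.27 to 44.0 ± 2.65 CPM (mean ± SD, n = 3 mice each), a log2 fold change of 1.32 (adjusted p = 2.29e-06, edgeR) that was positive and past the threshold under all 3 scalings. Hk1 rose by 0.36 (adjusted p = 0.02, edgeR) under TMM and fell by 0.35 under endothelial scaling, and Hk2, at 2.98 ± 0.290 and 4.58 ± 0.645 CPM (mean ± SD, n = 3 mice each), rose by 0.61 (adjusted p = 0.0201, edgeR) under TMM and was at -0.09 under endothelial scaling. Slc37a2, a sugar phosphate carrier, rose by 0.54 (adjusted p = 0.000647, edgeR), with -0.17 under endothelial scaling (adjusted p = 0.147, edgeR). Gpi1, which sends glucose-6-phosphate on to glycolysis instead, was at 0.04 and G6pc3, a phosphatase, at -0.04.

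At the exit to glycolysis, 2 genes were higher and 1 lower of 8 tested (median 0.07), beside 31.1% and 27.8% of all tested genes. Pfkp, a phosphofructokinase, rose by 0.20 (adjusted p = 0.022, edgeR) under TMM and fell by 0.51 under endothelial scaling. The aldolase Aldoc fell by 0.42 (adjusted p = 0.0223, edgeR) and was at -0.04 under leukocyte scaling, while Aldoa was at 662 ± 1.48 and 655 ± 19.6 CPM (mean ± SD, n = 3 mice each) with -0.01, and Tpi1 at 0.06.

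Of the 11 tested genes grouped around ribose phosphate, not all of which act on it, 1 was higher, 5 were lower and 5 did not pass under TMM. Their median was -0.24, and of all tested genes 31.1% were higher and 27.8% lower. The phosphoribosyl pyrophosphate synthetase Prps1, which starts nucleotide synthesis from ribose-5-phosphate, fell from 189 ± 14.1 to 139 ± 10.4 CPM (mean ± SD, n = 3 mice each), a log2 fold change of -0.44 (adjusted p = 0.000585, edgeR). Its related genes Prpsap2 and Prps1l3 fell by 0.51 and 0.34. Dera, the aldolase that breaks down deoxyribose phosphate, fell from 87.7 ± 3.52 to 53.0 ± 5.94 CPM (mean ± SD, n = 3 mice each), by 0.73 (adjusted p = 5.06e-05, edgeR). Pgm1, a phosphoglucomutase, fell by 0.29, and Pgm2, which acts on pentose phosphates, rose by 0.44 (adjusted p = 0.00185, edgeR) but fell by 0.27 under endothelial scaling. Of the 5 that fell, Dera alone passed as lower under leukocyte scaling too (-0.35, adjusted p = 0.00774, edgeR), where Prps1, Prpsap2, Prps1l3 and Pgm1 were at -0.06, -0.14, 0.04 and 0.08. Prpsap1 and Shpk were at 0.04 and 0.09 under TMM.

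Of 9 regulators, 4 were higher and 1 lower (median -0.01), beside 31.1% and 27.8% of all tested genes. Nfe2l2, which encodes NRF2, rose from 101 ± 8.67 to 151 ± 1.48 CPM (mean ± SD, n = 3 mice each), a log2 fold change of 0.58 (adjusted p = 5.82e-05, edgeR), with -0.13 under endothelial scaling (adjusted p = 0.165, edgeR). Bach1, a repressor at the same elements, rose by 0.88 (adjusted p = 0.000493, edgeR) and was at 0.17 under endothelial scaling (adjusted p = 0.349, edgeR), and Keap1, which marks NRF2 for degradation, was at -0.01. The lipogenic factors Srebf1 and Srebf2 rose by 0.52 and 0.40 (adjusted p = 0.005 and 0.0296, edgeR) and were at -0.19 and -0.31 under endothelial scaling, and the groups of Srebf2 overlapped. Sirt5, a deacylase, fell by 0.73 (adjusted p = 0.000321, edgeR), and passed as lower under all 3 scalings. Trp53, whose product restrains glucose-6-phosphate dehydrogenase, was at -0.09 (adjusted p = 0.28, edgeR).

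Among 13 tested other sources of NADPH, 6 were higher and 2 lower (median 0.32), beside 31.1% and 27.8% of all tested genes. Endothelial scaling gave 2 higher and 9 lower, beside 11.9% and 64.2% of all tested genes. Leukocyte scaling gave 11 higher and 1 lower, beside 55.2% and 5.64%. Me1, the cytosolic malic enzyme, rose from 1.75 ± 0.251 to 5.63 ± 0.680 CPM (mean ± SD, n = 3 mice each), a log2 fold change of 1.69 (adjusted p = 5.39e-05, edgeR). Idh1, the cytosolic isocitrate dehydrogenase, rose from 59.3 ± 1.23 to 123 ± 12.6 CPM (mean ± SD, n = 3 mice each), by 1.05 (adjusted p = 1.47e-06, edgeR), and both Me1 and Idh1 also passed as higher under the other scalings. The cytosolic dehydrogenases G6pdx and Pgd had 0.28 and 0.37 on the same scale, and the difference between these genes was not tested. Me2, a mitochondrial malic enzyme that works mainly with NAD+, fell from 340 ± 13.7 to 217 ± 25.5 CPM (mean ± SD, n = 3 mice each), by 0.65 (adjusted p = 7.04e-05, edgeR), and was lower under all 3 scalings. Transcripts of Nadk, which makes NADP+ from NAD+, and Nnt, the mitochondrial transhydrogenase, rose by 0.40 and 0.43. Under endothelial scaling both fell, by 0.31 and 0.28. Whether the Nnt transcript of these mice gives a working enzyme was not tested. Aldh1l1, a folate enzyme, rose by 0.83 (adjusted p = 0.00563, edgeR), with 0.12 under endothelial scaling (adjusted p = 0.618, edgeR). Mthfd1 and Glud1 were at 0.02 and -0.04.

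On the side of NADPH use, 4 of 11 reductases were higher and 3 lower (median 0.11), beside 31.1% and 27.8% of all tested genes. Gsr, which reduces oxidised glutathione, rose from 54.0 to 85.3 CPM on average, a log2 fold change of 0.66 (adjusted p = 1.47e-05, edgeR), with -0.05 under endothelial scaling (adjusted p = 0.58, edgeR). Por, the reductase of cytochromes P450, rose by 0.64 (adjusted p = 0.000104, edgeR) with -0.06 under that scaling, Nqo1, a quinone reductase, by 0.83 (adjusted p = 0.000873, edgeR) with 0.12, and Cbr3, a carbonyl reductase, by 1.54 (adjusted p = 6.72e-05, edgeR) with 0.83. Hsd11b1 and Txnrd2 (-0.30, adjusted p = 0.0387, edgeR, and 0.08 under leukocyte scaling) fell, and Txnrd1 and Cbr1 were at 0.02 and -0.06. Of 10 tested subunits of NADPH oxidases 1 was higher and 3 were lower (median -0.09), beside the same shares of all tested genes. The subunits that fell were Ncf4, Cybb and Rac2 (log2 fold changes of -0.54, -0.44 and -0.41), which belong to the oxidase of phagocytes and other leukocytes. Under leukocyte scaling they were at -0.16, -0.06 and -0.03, of which only Ncf4 passed (adjusted p = 0.0481, edgeR). The summed markers of macrophages and neutrophils were higher in PD mice, and those of leukocytes, B cells and T cells were lower. The part of these cells in the fall was not tested. Duox2 was called higher (1.96, adjusted p = 0.0151, edgeR) at levels up to 1.36 CPM and was at 1.26 under endothelial scaling (adjusted p = 0.0719, edgeR), while Ncf1 was at -0.03.

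Among 10 synthesis enzymes that spend NADPH, 3 were higher and 1 lower (median -0.03), beside 31.1% and 27.8% of all tested genes. Nos3, the endothelial nitric oxide synthase, was at 13.9, 8.12 and 15.5 CPM in saline mice and at 49.1, 37.5 and 31.6 CPM in PD mice, a log2 fold change of 1.65 (adjusted p = 8.82e-05, edgeR), and was also higher under endothelial scaling (0.94, adjusted p = 0.000949, edgeR). Fasn, fatty acid synthase, and Nos2 were called higher under TMM with overlapping groups, and were at 0.05 and 0.53 under endothelial scaling without passing (adjusted p = 0.868 and 0.329, edgeR). Tm7sf2 of sterol synthesis was at 0.04.

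**Figure D5:**
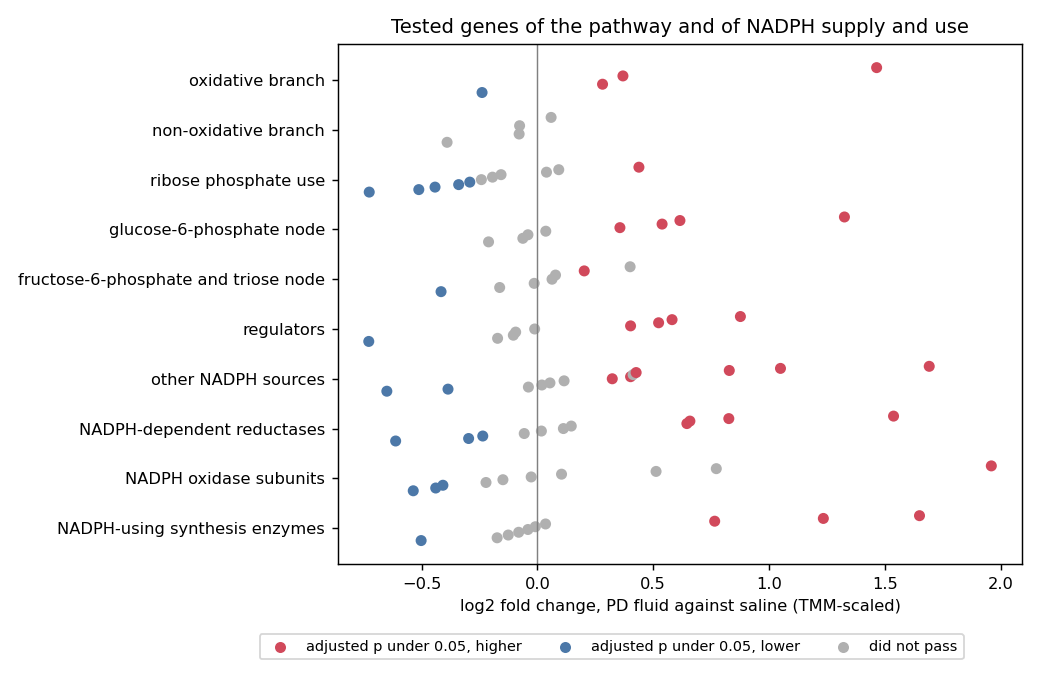
Log2 fold change, PD against saline mice under TMM (x axis), of each tested gene of the pathway and of the lists around it (rows), in red where higher and in blue where lower at an adjusted p under 0.05 and in grey otherwise; genes at the floor of 3 counts or fewer in every saline mouse and the paralog list are left out. The oxidative branch has 3 red points and 1 blue, the non-oxidative branch has grey points only, and ribose phosphate use has 1 red and 5 blue. Of all tested genes, 31.1% were higher and 27.8% lower.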

How the data were processed

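RNA was sequenced from CD31-sorted peritoneal cells of 3 saline and 3 PD mice, 1 library each. The authors deposited gene counts without normalization and FPKM values from the same reads. The submitters' processing notes name fastp 0.18.0, Bowtie2 2.2.8, HISAT2, StringTie 1.3.1 and RSEM, and the genome build and the strand setting are not given in the sources used here. The fold changes, p-values and FDR in the deposited table were not used. Positions come from GENCODE M21 (GRCm38), which held 22128 of the identifiers, and promoters from RefSeq.

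Counts were tested in R 4.3.3 with edgeR 4.0.16 (filterByExpr, TMM, quasi-likelihood test of PD against saline without covariates, Benjamini-Hochberg adjustment). Intervals came from limma 3.58.1 (voom), a choice added after seeing the data, as was the KEGG list. Members and lists were chosen with earlier results of these data known. Named were all members, up to 6 genes with the largest change past the threshold and 2 with the smallest change from each list, lists of 5 or fewer genes in full, and the 3 genes most correlated with G6pdx and H6pd. Some genes that this rule names are counted in their lists but not reported here. The genes that overlap members were added after their values were seen. Ratios used two-sided exact permutation tests (scipy 1.17.1). No 2 libraries of a group agreed within sampling noise. Libraries were taken as 1 mouse each. Alternatives were DESeq2 1.42.0, limma-voom, RLE, endothelial and leukocyte scaling, no filter, acinar genes left out, log2(FPKM + 1), the replicate number as a block, and each mouse left out. The fit was tested on simulated data. It recovered 35 of 67 genes with an absolute log2 fold change of 0.5. At 1 it recovered 58 of 66, and at 2 it recovered 64 of 65. Of 13660 unchanged genes it called 13. Changes below 0.5 were not simulated.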

Additional observations from a re-analysis of the deposited data

How the results depend on the processing

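G6pdx, H6pd and Pgd kept their calls in all 6 fits with a mouse left out, with log2 fold changes of 0.26 to 0.32, 1.296 to 1.803 and 0.34 to 0.42 and a largest adjusted p of 0.0291, 0.00415 and 0.00771 (edgeR). Scaling decided most else. Endothelial scaling gave 1 member higher and 7 lower, beside 11.9% and 64.2% of all tested genes. It turned G6pdx to -0.43, Pgd to -0.34 and Tkt to -0.65. Leukocyte scaling gave 6 higher and 0 lower, beside 55.2% and 5.64% of all tested genes. It turned Pgls to 0.14, Rpe to 0.30 and Taldo1 to 0.30. Members called lower numbered 0 without the filter and 0 with the replicate block (Pgls, adjusted p = 0.06 and 0.056, edgeR), and from 0 to 1 with a mouse left out. The block changed no other member's call. Mice with the same number correlated at 0.105, 0.041 and -0.173 in their deviations, so the numbers were not taken as pairs. In the order of levels per length, saline medians placed Rpe at 5, Pgd at 6, Rpia at 7 and H6pd at 8, and PD medians placed G6pdx at 3 and Pgls at 4. Calls over all genes stayed between 6996 and 10667 under the alternatives. With 3 mice a group the ratios cannot pass, and Rpia is limited by its depth of 30 to 74 counts per library.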

Other observations

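H6pd shared its lowest saline mouse and its highest PD mouse with many genes, a pattern singled out after its values were seen. Only these positions were compared, not the full order of the mice. H6pd was lowest in saline mouse 2 among saline mice and highest in PD mouse 1 among PD mice. The same held for Pgd, 2 of the 8 members in all, for 17 of the 81 tested genes of the lists around the pathway, and for 2724 of 14005 tested genes (19.5%). Srebf2, a regulator of sterol synthesis, showed it with 102, 71.7 and 99.1 CPM in saline mice and 141, 118 and 102 CPM in PD mice, and Fasn with 12.2, 6.59 and 11.9 CPM in saline mice and 24.1, 16.7 and 11.4 CPM in PD mice. In both genes PD mouse 3 was within the saline range. What sets this pattern was not tested.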
